A study of Homo sapiens with 6 samples.

Results

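The 69 genes described here encode the translation initiation factors (EIF1 to EIF6) and elongation factors (EEF) of human cells, with their subunits, paralogs, binding proteins and dedicated modifying enzymes. They were taken from the gene symbols of the count table by name. Of the 35322 symbols, 152 begin with EIF1, EIF2 (EIF2AK excluded), EIF3, EIF4, EIF5, EIF6 or EEF, and 2 antisense genes and 81 pseudogenes were removed from these. RNA was sequenced in 6 libraries of 22Rv1, an established human prostate carcinoma cell line grown in RPMI1640 with fetal bovine serum, to ask what lowering ZMYND11, a reader of histone methylation, does to its transcripts. Control cells gave 2 libraries, as did each of 2 ZMYND11 knockdowns, here kd1 and kd2. The study states that the sequenced cells stably carried shRNAs against ZMYND11 or control shRNAs, while the labels name no shRNA and call the control libraries control and their genotype wild type. Nor do they say whether the 2 libraries of a group came from separate cultures, so p-values measure the spread between these libraries, which may be technical. In bulk RNA a lower level per cell and fewer cells holding a transcript cannot be told apart.

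Translation begins when eIF2, carrying the initiator tRNA, joins the small ribosomal subunit together with eIF1, eIF1A, eIF3 and eIF5, while eIF4E binds the mRNA cap and recruits eIF4G and the helicase eIF4A. The exchange factor eIF2B recharges eIF2 with GTP, and 4E-BPs block eIF4E when they are not phosphorylated by mTORC1. eEF1A delivers aminoacyl tRNAs to the ribosome, eEF2 moves the ribosome along the mRNA, and the kinase eEF2K inhibits eEF2. Many of these mRNAs begin with a pyrimidine tract (a TOP start), through which mTORC1 regulates their translation, and growing cells depend on this machinery.

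The libraries held 26844128 to 38193748 counts, and ZMYND11 itself had 4283 and 4179 counts in control cells, 941 and 773 in kd1, and 770 and 779 in kd2. All 9 luminal prostate markers examined had counts in every library, and their summed level was 2100 to 2110 CPM (reads per 1000000 counted) in control cells, 2940 to 3010 in kd1 and 2260 to 2330 in kd2. The 3 stroma markers summed to 25.1 to 26.8 CPM in control cells, 77.3 to 78 in kd1 and 31.3 to 33.5 in kd2, mostly from COL1A1. The 3 basal, 2 endothelium and 3 leukocyte markers summed to at most 0.442 CPM per list and library, with CD3E at 0 throughout. Mitochondrial transcripts made up 8.73% and 8.87% of counts in control cells, 10.1% and 9.88% in kd1 and 6.15% and 6.24% in kd2. Their part in the results, and that of the stroma and luminal markers, was not tested.

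Of the 69 genes, 65 were tested. EEF1G and the readthrough gene EEF1AKMT4-ECE2 were listed at 0 in all 6 libraries, and EIF2S3B and EIF4EBP3 had at most 15 counts. EEF1G encodes the gamma subunit of eEF1, and only 0.3% of its exon bases are free of another annotated gene on the same strand, so a count of 0 says nothing of its expression. Exons of EEF2KMT, EEFSEC, EIF4E3 and several others overlap genes on the opposite strand, and whether the counting used strand is not given in the sources used here. Gene positions are those of GENCODE 44 on hg38. Levels are given as CPM after TMM scaling, and a gene was called at an adjusted p under 0.05 in edgeR's quasi-likelihood test. Errors of log2 fold changes are standard errors from 1 fit of the 3 groups, with 2 libraries each, which share their estimate of the spread. Scatter between the libraries of a group, as chi-square per degree of freedom over tested genes, was 2.33 in control cells, 3.83 in kd1 and 10.1 in kd2. Errors and p-values for kd2 may therefore be too small.

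In kd1, 43 of the 65 genes were called higher and 15 lower than in control cells. The background was high, with 78% of all 16510 genes tested called, 38.2% higher and 39.8% lower. The share of translation factors called higher was 66.2% and the share called lower 23.1%. Their median log2 fold change was 0.49, beside -0.03 over all genes tested. In kd2, 47 were called higher (72.3%) and 11 lower (16.9%), beside 73.4% of all genes called, 36.5% higher and 36.9% lower. The median in kd2 was 0.52, beside -0.03 over all genes. A change of at least 1.5-fold in addition was met by 37 of the 65 genes in kd1 and 37 in kd2, beside 59.7% and 51.1% of all genes. The kd1 share was slightly below that of all genes and the kd2 share slightly above it.

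The counts in kd1 depended on the scaling. With library totals in place of TMM factors, the median of all genes moved by -0.35 in kd1 and -0.17 in kd2, and the counts became 31 higher and 22 lower in kd1 (27.8% and 51% of all genes) and 43 higher and 13 lower in kd2 (30.1% and 43.7% of all genes). Of the genes called in kd1, 36 of the 43 higher and 12 of the 15 lower had the same direction with DESeq2 size factors, library totals and offsets that remove trends with GC content and transcript length (the GC and length correction). The exceptions among those called higher were EEF1A1, EEF1AKMT4, EIF1AX, EIF3F, EIF3K, EIF4E2 and EIF4H, and among those called lower EIF2S3, EIF3A and EIF4G3. Of these, EEF1A1 and EIF1AX with library totals and EIF3A, EIF3K and EIF4E2 with the correction were called in the other direction, while the rest turned sign without a call there, as did EIF3K with library totals. In kd2 the 47 higher and 11 lower calls had the same direction under each of the 3. Several calls kept their direction but not their adjusted p. With library totals those of EEF1AKMT1, EEF1AKMT4, EIF2B3, EIF2B5, EIF3J, EIF4E2 and EIF4ENIF1 were lost in kd1 and those of EIF2B3, EIF3A, EIF3B and EIF4G2 in kd2, and with the GC and length correction those of EEF1AKMT1, EEF1AKMT2 and EEF1B2 were lost in kd1. That correction moved the kd1 fold change of 14 of the 65 genes by over 1.5 times and none in kd2. Among 59 tested genes that have at least 60% of their exon bases free of other genes on the same strand, with EIF3C, EIF3CL and EIF5AL1 also left out, 41 were called higher and 12 lower in kd1 and 45 higher and 9 lower in kd2.

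Both knockdowns were compared with the same 2 control libraries, so their calls are not independent. Against those controls, 40 of the 65 genes (61.5%) were called higher in both knockdowns, beside 25.6% of all genes, and 7 (10.8%) lower in both, beside 27%. The 7 were EEF2K, EIF3L, EIF4A1, EIF4B, EIF4E1B, EIF4G3 and EIF5, where EIF4G3 turned slightly positive in kd1 (0.03) under the GC and length correction. Calls went in opposite directions for 6 genes (9.23%), beside 9.1% of all genes. In 61 of the 65 genes (93.8%) the 2 kd1 libraries lay on one side of both controls, and in 62 (95.4%) the kd2 libraries did, beside 89.7% and 86.3% of all genes.

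**Figure D1:**
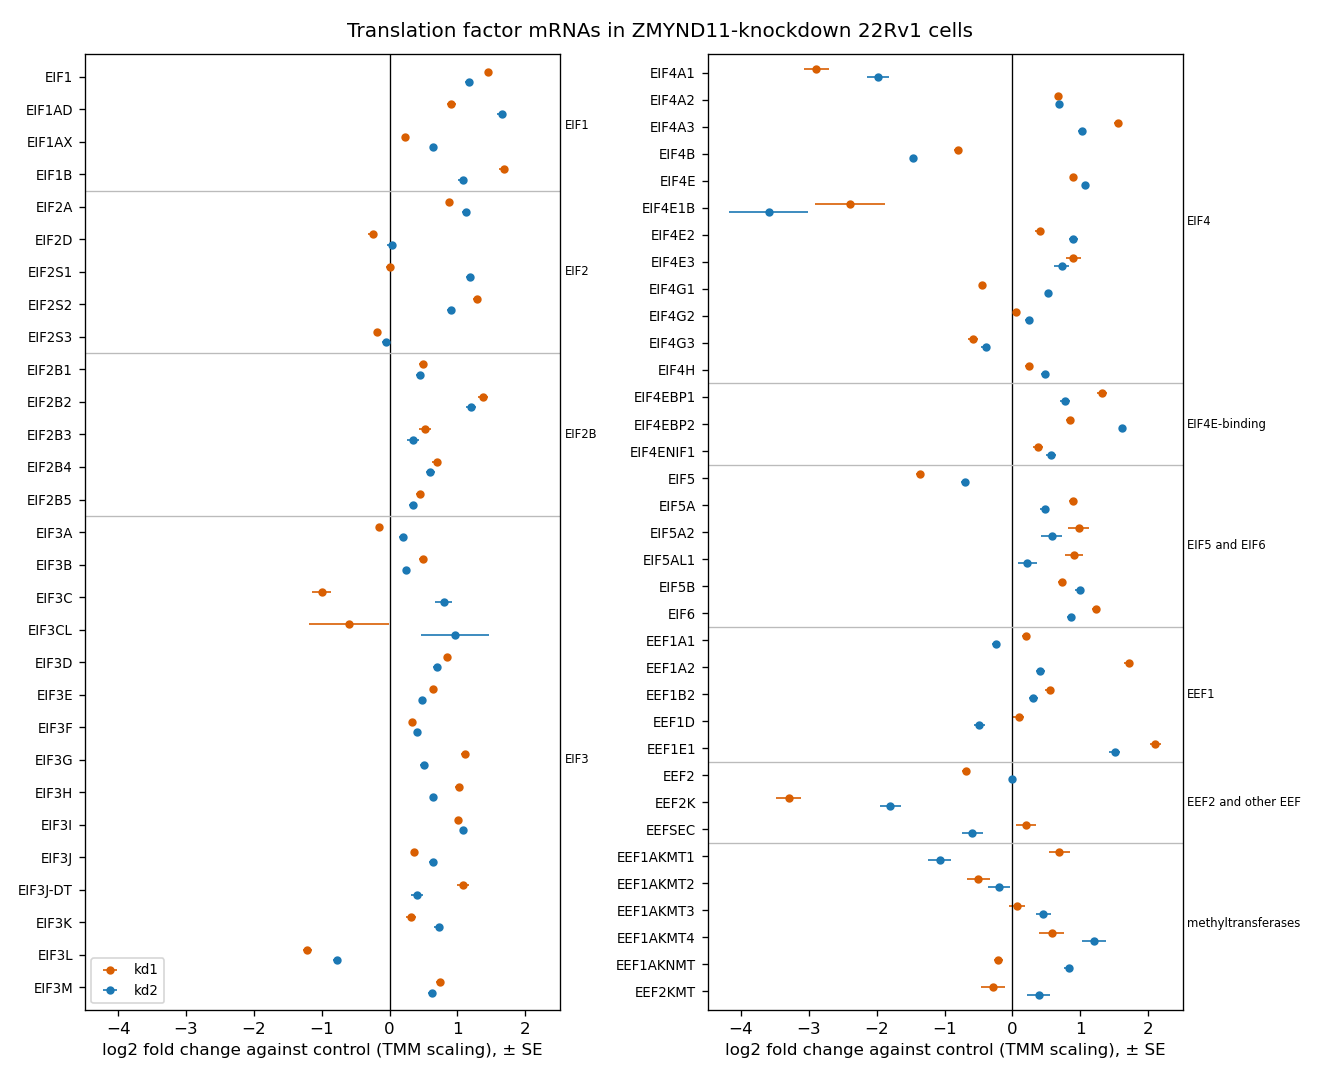
Log2 fold change against control (x axis, TMM scaling) of 64 tested translation factor genes (y axis, by factor group) in kd1 (orange) and kd2 (blue), with bars of 1 standard error. Most points lie right of 0, and of the genes called in both knockdowns EEF2K, EIF3L, EIF4A1, EIF4B, EIF4E1B, EIF4G3 and EIF5 lie left of it in both. Of the genes called in kd1, EEF1A1, EIF1AX, EIF3F, EIF3K and EIF4H fall left of 0 there with library totals. With the GC and length correction EEF1AKMT4, EIF3K and EIF4E2 do, while EIF2S3, EIF3A and EIF4G3 move right of it. Genes not called in kd1, such as EEF1D and EIF2S1, also cross 0 with library totals.

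Starts and upstream sequences are shown for members that rose, fell or went opposite ways. Of the 69 genes, 55 have a RefSeq promoter (GRCh38.p14, 250 bases before to 50 after the start), and EEF1D, EIF3A, EEF1A2, EIF3L and EIF4EBP1 are among those that do not. A pyrimidine start, here a C at the first base followed by at least 4 C or T, was found in 12 of the 55 (21.8%), beside 4.04% of all promoters. Among tested genes it was found in 11 of 51 (21.6%), beside 4.96% of the promoters of all tested genes. The capitals below mark the pyrimidine run, counted from the first transcribed base, in windows of 30 bases read 5′ to 3′ along the gene's strand, for 5 genes that differ in response.
EEF1A1: gtgaacgttCTTTTTCgcaacgggtttgcc
EEF2: gtcagcgttCTCTTCCgccgtcgtcgccgc
EIF4B: catccgggtCTTTTgcgttctctttccctc
EIF4A2: cgccgctgtCTTTTCagtcgggcgctgagt
EIF3F: ttccgcctcCTTCTTTCTCgacaagatggc
The positions of these windows are chr6:73521012-73521041 (minus strand) for EEF1A1, chr19:3985443-3985472 (minus strand) for EEF2, chr12:53006447-53006476 (plus strand) for EIF4B, chr3:186783568-186783597 (plus strand) for EIF4A2 and chr11:7987328-7987357 (plus strand) for EIF3F. EEF1A1, EEF2 and EIF4B, all known TOP mRNAs, have such a start, and so does EIF4A2. Of 6 known TOP mRNAs with a promoter here, 4 have it. Among the 10 known TOP mRNAs in the set, 9 were tested. In kd1, 5 were called higher and 3 lower, or 3 higher and 5 lower with library totals (27.8% and 51% of all genes). Of those called in kd1, EEF1A1 and EIF3F turned negative with those totals and EIF3A turned positive with the GC and length correction. In kd2, 5 were called higher and 3 lower. In each knockdown that is 55.6% higher and 33.3% lower, beside 38.2% and 39.8% of all genes in kd1 and 36.5% and 36.9% in kd2. Their median log2 fold change was 0.19 in kd1 and 0.19 in kd2, beside 0.55 and 0.61 for the 56 tested genes not on that list. Within the list EIF4B fell in both knockdowns and EEF2 in kd1, while EIF3E and EIF3H rose in both.

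The E-box CACGTG is a sequence bound by MYC and related factors, and MYC mRNA itself had 4008 and 4086 counts in control cells, 605 and 551 in kd1 and 1979 and 1859 in kd2. It is the same on both strands. It occurred in 15 of the 55 promoters (27.3%), beside 7.43% of all promoters, and in 13 of 51 promoters of tested members (25.5%), beside 9.64% of those of all tested genes. EEF1AKMT4 and EEF1AKMT4-ECE2 share one of these promoters. Windows of 30 bases with CACGTG in capitals follow for 6 genes, which include members that fell in both knockdowns (EEF2K, EIF4B), rose in both (EIF4E, EIF4A3, EIF1B) or went opposite ways (EIF4G1).
EEF2K: cctgggggcggcCACGTGagcgccacgccg
EIF4B: gcccgctataatCACGTGattgcctcatcc
EIF4G1 at -144: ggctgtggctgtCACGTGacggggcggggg
EIF4G1 at -67: ccctgcgccggtCACGTGggggcgccggct
EIF4E at -225: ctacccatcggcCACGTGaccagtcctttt
EIF4E at -72: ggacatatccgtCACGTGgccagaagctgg
EIF4A3: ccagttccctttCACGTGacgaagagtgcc
EIF1B: gcgcgggacggtCACGTGggaggggccgcg
These windows lie at chr16:22206207-22206236 (plus strand) for EEF2K, chr12:53006422-53006451 (plus strand) for EIF4B, chr3:184314450-184314479 (plus strand) for EIF4G1 at -144, chr3:184314527-184314556 (plus strand) for EIF4G1 at -67, chr4:98929341-98929370 (minus strand) for EIF4E at -225, chr4:98929188-98929217 (minus strand) for EIF4E at -72, chr17:80147232-80147261 (minus strand) for EIF4A3 and chr3:40309641-40309670 (plus strand) for EIF1B. Among 13 tested genes with the E-box, 9 were called higher and 3 lower in kd1, where EEF1AKMT4, EIF3F, EIF3K and EIF4H each turned negative under another scaling, and 10 and 3 in kd2. Of all genes 38.2% were called higher and 39.8% lower in kd1, and 36.5% and 36.9% in kd2. The medians with the E-box were 0.33 and 0.52. The 38 without it had 27 higher and 9 lower in kd1, where EEF1A1, EIF1AX and EIF4E2 turned negative and EIF2S3 and EIF4G3 higher under another scaling, and 28 and 5 in kd2. Medians were 0.52 and 0.61. Matches are a description of these letters and not evidence of binding.

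All 5 genes with an EIF1 name were called higher in both knockdowns, as were 25.6% of all genes, with log2 fold changes of 0.23 to 1.68 in kd1 and 0.65 to 1.65 in kd2, although EIF1AX turned to -0.13 in kd1 with library totals. EIF1, which checks the match of start codon and initiator tRNA, had 743 and 760.0 CPM in control cells, 2041 and 2083 in kd1 and 1748 and 1621 in kd2. Both knockdowns lay above both controls, by 2.74-fold in kd1 (log2 fold change 1.46 ± 0.05, adjusted p = 5.9e-12) and 2.24-fold in kd2 (log2 fold change 1.16 ± 0.05, adjusted p = 9.2e-11). Its paralog EIF1B had 47.8 and 47.1 CPM in control cells, 148 and 157 in kd1 and 105 and 95.2 in kd2, again with no overlap between the groups. The rise of EIF1B was 3.21-fold in kd1 (log2 fold change 1.68 ± 0.06, adjusted p = 9.1e-12) and 2.11-fold in kd2 (log2 fold change 1.08 ± 0.06, adjusted p = 1.6e-09), and kd2 minus kd1 was -0.61 ± 0.06 log2 units (adjusted p = 5.7e-07).

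The 3 subunits of eIF2 did not move alike. EIF2S1 (chr14:67360328-67386516, plus strand), the alpha subunit that stress kinases phosphorylate, had 146 and 156 CPM in control cells, 158 and 146 in kd1 and 349.8 and 336 in kd2. Levels in kd1 overlapped those of the controls, while both kd2 libraries were far above them. The change was 0.01 ± 0.06 log2 units (adjusted p = 0.89) in kd1 and 1.19 ± 0.06 log2 units (adjusted p = 2.1e-10) in kd2, a difference of 1.18 ± 0.06 log2 units (adjusted p = 3.7e-10). In kd1 its sign depended on the scaling, at -0.34 with library totals and 0.45 with the GC and length correction. EIF2S2, the beta subunit, had 219 and 229 CPM in control cells, 543 and 546 in kd1 and 428 and 409.6 in kd2. Both knockdowns exceeded the controls, by 1.28 ± 0.05 log2 units (adjusted p = 1.6e-11) in kd1 and 0.90 ± 0.05 log2 units (adjusted p = 1.0e-09) in kd2. EIF2S3, the gamma subunit that binds GTP, had 193 and 187 CPM in control cells, 168 and 168 in kd1 and 184 and 181 in kd2. Its kd1 libraries were slightly below the controls (log2 fold change -0.18 ± 0.05, adjusted p = 0.0048, but 0.10 with the GC and length correction), and it was not called in kd2 (log2 fold change -0.06 ± 0.05, adjusted p = 0.3) except with library totals (-0.23, adjusted p = 0.00077). Without the first control library EIF2S3 was not called in kd1 (adjusted p = 0.068). Of the other 2 tested genes of this group, which deliver initiator tRNA by other routes, EIF2A was called higher in both knockdowns and EIF2D lower in kd1.

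All 5 subunits of the exchange factor eIF2B were called higher in both knockdowns, beside 25.6% of all genes, with log2 fold changes of 0.45 to 1.37 in kd1 and 0.35 to 1.198 in kd2, and each kept its direction under the 3 other scalings. With library totals the calls of EIF2B3 (adjusted p = 0.108) and EIF2B5 (adjusted p = 0.144) were lost in kd1, and that of EIF2B3 in kd2 (adjusted p = 0.098). Between the knockdowns 1 of the 5 was called (20%), beside 68.8% of all genes. That gene was EIF2B2, where kd2 minus kd1 was -0.18 ± 0.07 log2 units (adjusted p = 0.043), or 0.01 with library totals. EIF2B2, the beta subunit, moved most, with 22.4 and 24.4 CPM in control cells, 61.3 and 60.02 in kd1 and 56.7 and 50.7 in kd2. All knockdown libraries lay above both controls, and the fold change was 2.59 in kd1 (log2 fold change 1.37 ± 0.08, adjusted p = 5.4e-10) and 2.29 in kd2 (log2 fold change 1.20 ± 0.08, adjusted p = 4.0e-09).

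The eIF3 complex is the scaffold that holds the small subunit and other factors together. Of 15 tested genes with an EIF3 name, one of them the divergent noncoding transcript EIF3J-DT, 11 were called higher and 3 lower in kd1, where EIF3F and EIF3K lost their calls at -0.02 and -0.04 with library totals, EIF3K turned negative with the GC and length correction, and EIF3A turned positive with that correction. In kd2, 13 were called higher and 1 lower. The shares are 73.3% and 20% in kd1, beside 38.2% and 39.8% of all genes, and 86.7% and 6.67% in kd2, beside 36.5% and 36.9%. EIF3I had 195 and 200.1 CPM in control cells, 391 and 406 in kd1 and 434 and 404 in kd2. All 4 knockdown libraries lay above both controls while kd1 and kd2 overlapped each other, and the level was 2.02-fold that of the controls in kd1 (log2 fold change 1.01 ± 0.05, adjusted p = 3.1e-10) and 2.12-fold in kd2 (log2 fold change 1.09 ± 0.05, adjusted p = 2.6e-10). EIF3L went the other way, with 142 and 143 CPM in control cells, 64.3 and 58.5 in kd1 and 79.1 and 87.6 in kd2. Each knockdown library was below both controls, with -1.21 ± 0.07 log2 units (adjusted p = 3.5e-10) in kd1 and -0.78 ± 0.06 log2 units (adjusted p = 6.0e-08) in kd2, but 58.9% of its exon bases are free of other genes on its strand, so reads may be shared.

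The large subunit EIF3A had 360.0 and 370.4 CPM in control cells, 324 and 333 in kd1 and 424 and 411 in kd2. Its kd1 libraries were below and its kd2 libraries above the controls, at -0.15 ± 0.05 log2 units (adjusted p = 0.013) and 0.19 ± 0.05 log2 units (adjusted p = 0.0028). The kd1 call of EIF3A was lost without the second control library (adjusted p = 0.13) or the first kd1 library (adjusted p = 0.12), and the kd2 call without the first control library (adjusted p = 0.061). With library totals the kd2 change of EIF3A was 0.024 (adjusted p = 0.651), and with the GC and length correction the kd1 change was 0.49. EIF3C, a core subunit, had 11.8 and 10.7 CPM in control cells, 6.45 and 4.695 in kd1 and 19.01 and 20.1 in kd2. It was below the controls in kd1 (log2 fold change -1.0 ± 0.14, adjusted p = 1.6e-05) and above them in kd2 (log2 fold change 0.80 ± 0.13, adjusted p = 4.8e-05). EIF3C has the near-identical copy EIF3CL, which had at most 5.76% as many counts in any library and was called in neither knockdown against control, so how reads were divided between the pair is uncertain.

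Cap binding and mRNA recruitment by eIF4 showed a wide spread, with log2 fold changes of -2.89 to 1.55 in kd1 and -3.59 to 1.07 in kd2. Of 12 tested genes, 6 were called higher and 5 lower in kd1, where EIF4H turned negative with library totals, EIF4E2 turned negative and EIF4G3 higher with the GC and length correction. In kd2, 8 were called higher and 4 lower. The kd1 shares of 50% and 41.7% are near the 38.2% and 39.8% of all genes, while in kd2 they were 66.7% and 33.3%, beside 36.5% and 36.9%. The cap-binding protein EIF4E (chr4:98879276-98929133, minus strand) had 91.1 and 93.2 CPM in control cells, 174 and 169 in kd1 and 192 and 196 in kd2. All knockdown libraries exceeded both controls, by 1.86-fold in kd1 (log2 fold change 0.89 ± 0.05, adjusted p = 8.2e-10) and 2.1-fold in kd2 (log2 fold change 1.07 ± 0.05, adjusted p = 2.0e-10).

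The scaffold EIF4G1 (chr3:184314495-184335358, plus strand) had 438 and 435 CPM in control cells, 320.0 and 320.3 in kd1 and 617 and 637 in kd2. Its level fell in kd1 (log2 fold change -0.45 ± 0.05, adjusted p = 9.1e-07) and rose in kd2 (log2 fold change 0.52 ± 0.05, adjusted p = 2.1e-07), with no overlap among the 3 groups and a difference of 0.97 ± 0.05 log2 units (adjusted p = 4.6e-10) between the knockdowns. EIF4B (chr12:53006282-53042215, plus strand), which stimulates the helicase, was abundant and had 735 and 761 CPM in control cells, 424 and 432 in kd1 and 279 and 264 in kd2. The fall was larger in kd2 than in kd1, with -0.81 ± 0.05 log2 units (adjusted p = 2.3e-09) in kd1, -1.46 ± 0.05 log2 units (adjusted p = 9.4e-12) in kd2 and -0.66 ± 0.05 log2 units (adjusted p = 4.5e-08) for kd2 minus kd1. EIF4E1B, a germ cell paralog of EIF4E, fell from 31 and 46 counts in control cells to 10 and 5 in kd1 and 3 and 4 in kd2, so its changes of -2.39 ± 0.51 log2 units (adjusted p = 0.00062) in kd1 and -3.59 ± 0.58 log2 units (adjusted p = 6.0e-05) in kd2 rest on few reads.

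The helicase paralogs differed in direction. EIF4A2 (chr3:186783205-186789897, plus strand) had 409 and 418 CPM in control cells, 658 and 658 in kd1 and 685 and 647 in kd2. It was higher by 0.67 ± 0.05 log2 units (adjusted p = 1.4e-08) in kd1 and 0.69 ± 0.05 log2 units (adjusted p = 1.7e-08) in kd2. EIF4A1 (chr17:7572824-7579006, plus strand) had 16.3 and 16.7 CPM in control cells, 2.65 and 1.76 in kd1 and 3.64 and 4.76 in kd2. Both knockdowns were below the controls, with -2.89 ± 0.18 log2 units (adjusted p = 1.8e-09) in kd1 and -1.98 ± 0.16 log2 units (adjusted p = 5.8e-08) in kd2. EIF4A1 had only 52 to 519 counts, 52.6% of its exon bases are free of other genes on its strand, and its 7 pseudogenes held up to 82.7% as many counts as the gene itself, so its level and fold change are uncertain. EIF4A3, the helicase of the exon junction complex rather than of initiation, had 89.8 and 91.8 CPM in control cells, 261 and 273 in kd1 and 193 and 176 in kd2. It rose 2.94-fold in kd1 (log2 fold change 1.55 ± 0.06, adjusted p = 8.3e-12) and 2.03-fold in kd2 (log2 fold change 1.02 ± 0.06, adjusted p = 1.0e-09).

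The 3 tested genes whose proteins bind eIF4E were called higher in both knockdowns, beside 25.6% of all genes, with the same direction under the 3 other scalings, though the kd1 call of EIF4ENIF1 was lost with library totals (0.023, adjusted p = 0.801). EIF4EBP1 (4E-BP1), the best known repressor of eIF4E, had 106 and 105 CPM in control cells, 258 and 269.6 in kd1 and 197 and 163 in kd2. The level was higher by 1.32 ± 0.07 log2 units (adjusted p = 5.6e-10) in kd1 and 0.77 ± 0.07 log2 units (adjusted p = 3.2e-07) in kd2, and the GC and length correction brought the kd1 value of EIF4EBP1 to 0.21. EIF4EBP2, its paralog, had 98.9 and 102 CPM in control cells, 178 and 183 in kd1 and 302 and 316 in kd2. The order was reversed here, with 0.84 ± 0.05 log2 units (adjusted p = 1.9e-09) in kd1, or 1.54 with the correction, and 1.62 ± 0.05 log2 units (adjusted p = 4.5e-12) in kd2. Kd2 minus kd1 was -0.55 ± 0.07 log2 units (adjusted p = 9.6e-06) for EIF4EBP1, or 0.41 with the GC and length correction, and 0.78 ± 0.05 log2 units (adjusted p = 7.6e-09) for EIF4EBP2. EIF4ENIF1, which carries eIF4E into the nucleus, rose by 0.38 log2 units in kd1 and 0.57 in kd2.

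**Figure D2:**
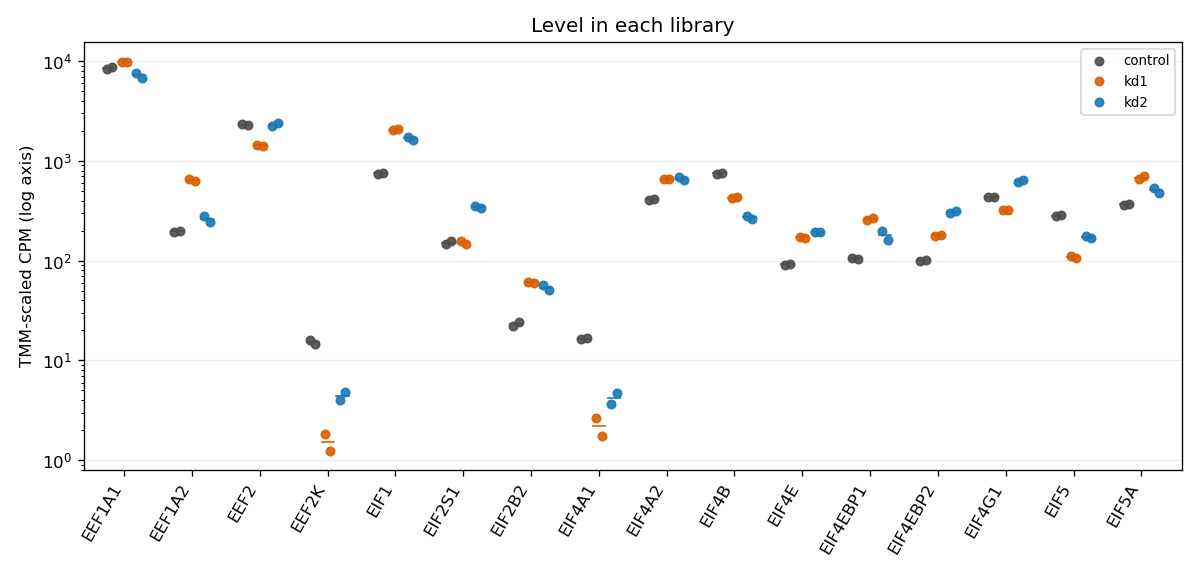
TMM-scaled CPM (y axis, log axis) of 16 translation factor genes in each library of control (grey), kd1 (orange) and kd2 (blue), with a line at each group mean of 2 libraries. EEF2K, EIF4A1, EIF4B and EIF5 lie below the controls in all 4 knockdown libraries, whereas EIF4G1 lies below them in kd1 and above them in kd2. The level of EIF4A1 is uncertain, with few counts and shared exons. EEF1A1 lies above them in kd1, but below them with library totals.

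Of 6 tested subunit joining and ribosome maturation factors, 5 were called higher and 1 lower in kd1, against 4 and 1 in kd2, beside 38.2% of all genes higher in kd1 and 36.5% in kd2. EIF5 (chr14:103333544-103345025, plus strand), which triggers GTP hydrolysis by eIF2, was the exception and had 278 and 284 CPM in control cells, 111 and 107 in kd1 and 176 and 169.6 in kd2. All knockdown libraries were below both controls, at 0.387 of the control level in kd1 (log2 fold change -1.37 ± 0.05, adjusted p = 9.9e-12) and 0.615 in kd2 (log2 fold change -0.70 ± 0.05, adjusted p = 1.5e-08). EIF6, which keeps the large ribosomal subunit from joining too early, had 44.6 and 45.5 CPM in control cells, 105 and 108 in kd1 and 83.5 and 80.4 in kd2. Its rise was 1.24 ± 0.06 log2 units (adjusted p = 8.2e-11) in kd1, or 0.41 with the GC and length correction, and 0.86 ± 0.06 log2 units (adjusted p = 6.7e-09) in kd2. EIF5A, the hypusine-carrying factor that relieves stalled ribosomes, had 362 and 372 CPM in control cells, 657 and 701 in kd1 and 538 and 481 in kd2. It rose by 0.89 ± 0.06 log2 units (adjusted p = 4.6e-09) in kd1, or 0.18 with the correction, and 0.47 ± 0.06 log2 units (adjusted p = 6.0e-06) in kd2. Its paralog EIF5A2 had 0.70 CPM per kilobase of transcript in control cells, against 290.6 for EIF5A, and 3.94 and 3.799 CPM in control cells, 7.09 and 8.21 in kd1 and 5.93 and 5.63 in kd2. The level of EIF5A2 was higher by 0.98 ± 0.15 log2 units (adjusted p = 4.0e-05) in kd1 and 0.58 ± 0.16 log2 units (adjusted p = 0.0041) in kd2.

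Among elongation factors, all 5 tested eEF1 genes were called lower in kd2 than in kd1, beside 33.8% of all genes, where EEF1B2 and EEF1D turned positive with the GC and length correction. Against control, 4 were called higher and 0 lower in kd1, of which EEF1A1 turned negative with library totals, and 3 higher and 2 lower in kd2, beside 38.2% and 39.8% of all genes in kd1 and 36.5% and 36.9% in kd2. EEF1A1 (chr6:73489308-73525587, minus strand), which delivers tRNAs to the ribosome, had the highest level per kilobase of transcript and 8423 and 8664 CPM in control cells, 9709.7 and 9837 in kd1 and 7579.6 and 6850.4 in kd2. Its change was 0.19 ± 0.05 log2 units (adjusted p = 0.0049) in kd1, or -0.16 with library totals, and -0.24 ± 0.05 log2 units (adjusted p = 0.001) in kd2. Without the first control library the kd1 call of EEF1A1 was lost (adjusted p = 0.078). EEF1A1 took 0.955% and 0.974% of all counts in control cells, 0.864% and 0.861% in kd1, and 0.751% and 0.695% in kd2. EEF1A2, its paralog of muscle and nerve that is also expressed in tumors, had 193 and 199.7 CPM in control cells, 658 and 629 in kd1 and 279 and 243 in kd2. Its level was 3.28-fold that of controls in kd1 (log2 fold change 1.71 ± 0.07, adjusted p = 8.5e-12, or 0.86 with the GC and length correction) but 1.33-fold in kd2 (log2 fold change 0.41 ± 0.06, adjusted p = 4.4e-05).

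EEF1E1, a scaffold of the aminoacyl tRNA synthetase complex named with eEF1, had 11.6 and 11.8 CPM in control cells, 49.7 and 50.9 in kd1 and 34.8 and 31.7 in kd2. The kd1 rise was 4.31-fold (log2 fold change 2.11 ± 0.08, adjusted p = 1.2e-11), with 2.84-fold in kd2 (log2 fold change 1.51 ± 0.08, adjusted p = 7.3e-10). EEF1D, an exchange subunit, had 24.3 and 24.3 CPM in control cells, 26.2 and 25.6 in kd1 and 17.2 and 17.4 in kd2. It was not called in kd1 (log2 fold change 0.09 ± 0.08, adjusted p = 0.3, but -0.26 with library totals and -0.68 with the GC and length correction) and was lower in kd2 (log2 fold change -0.49 ± 0.08, adjusted p = 8.7e-05). On both strands together 66% of its exon bases are free of other genes, and its 7 pseudogenes held up to 5.37% as many counts, so the level of EEF1D is uncertain.

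The translocase EEF2 (chr19:3976056-3985463, minus strand) fell in kd1 and its kinase EEF2K in both knockdowns. EEF2 had 2324 and 2308 CPM in control cells, 1458 and 1416 in kd1 and 2245 and 2375 in kd2. Levels in kd1 were below the controls, at 0.62 of the control level (log2 fold change -0.69 ± 0.05, adjusted p = 9.3e-09), while those of kd2 overlapped the controls (log2 fold change -0.0034 ± 0.05, adjusted p = 0.95, but -0.17 with library totals, adjusted p = 0.00446), and the knockdowns differed by 0.69 ± 0.05 log2 units (adjusted p = 1.9e-08). EEF2K (chr16:22206278-22288738, plus strand) had 15.9 and 14.7 CPM in control cells, 1.82 and 1.25 in kd1 and 4.003 and 4.79 in kd2, from 458 to 483 counts in control cells and 37 to 164 in the knockdowns. All 4 knockdown libraries lay far below the controls, at 0.102 of their level in kd1 (log2 fold change -3.30 ± 0.18, adjusted p = 3.9e-10) and 0.287 in kd2 (log2 fold change -1.80 ± 0.15, adjusted p = 7.7e-08). The difference between kd2 and kd1 was 1.5 ± 0.20 log2 units (adjusted p = 1.2e-05).

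Methyltransferases of eEF1A and eEF2 had group means of at most 10.3 CPM per kilobase of transcript, apart from EEF1AKNMT with up to 34.7. Among 6 tested genes 2 were called higher and 2 lower in kd1, where EEF1AKMT4 turned negative with the GC and length correction, and 3 higher and 1 lower in kd2. The kd1 shares, 33.3% each way, lie below the 38.2% and 39.8% of all genes, and those of kd2 were 50% and 16.7%, beside 36.5% and 36.9%. EEF1AKMT1 had 6.61 and 6.83 CPM in control cells, 9.51 and 12.3 in kd1 and 3.08 and 3.299 in kd2. It was higher in kd1 (log2 fold change 0.69 ± 0.15, adjusted p = 0.00066), though not called with library totals (adjusted p = 0.05002) or the GC and length correction (adjusted p = 0.104), and lower in kd2 (log2 fold change -1.07 ± 0.17, adjusted p = 4.4e-05). EEF1AKNMT had 67.5 and 64.1 CPM in control cells, 59.4 and 54.6 in kd1 and 117 and 117 in kd2. It went the opposite way, with -0.21 ± 0.06 log2 units (adjusted p = 0.0076) in kd1 and 0.83 ± 0.06 log2 units (adjusted p = 1.6e-08) in kd2. The kd1 call of EEF1AKNMT was lost without the first control library (adjusted p = 0.084) or the second kd1 library (adjusted p = 0.12). EEF1AKMT4 had 2.86 and 2.41 CPM in control cells, 4.18 and 3.68 in kd1 and 5.85 and 6.33 in kd2, and 50.8% of its exon bases are free of other genes on its strand. It was higher by 0.58 ± 0.19 log2 units (adjusted p = 0.011) in kd1 and 1.21 ± 0.18 log2 units (adjusted p = 2.4e-05) in kd2, but not called in kd1 without the second control library (adjusted p = 0.097) or the first kd1 library (adjusted p = 0.077). EEF1AKMT2 had 6.74 and 6.47 CPM in control cells, 3.97 and 5.404 in kd1 and 6.13 and 5.37 in kd2. Its change was -0.50 ± 0.17 log2 units (adjusted p = 0.016) in kd1 and -0.20 ± 0.17 log2 units (adjusted p = 0.29) in kd2, and -0.16 in kd1 with the GC and length correction, and its kd1 call was lost without the first control library (adjusted p = 0.069) or the first kd1 library (adjusted p = 0.19).

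**Figure D3:**
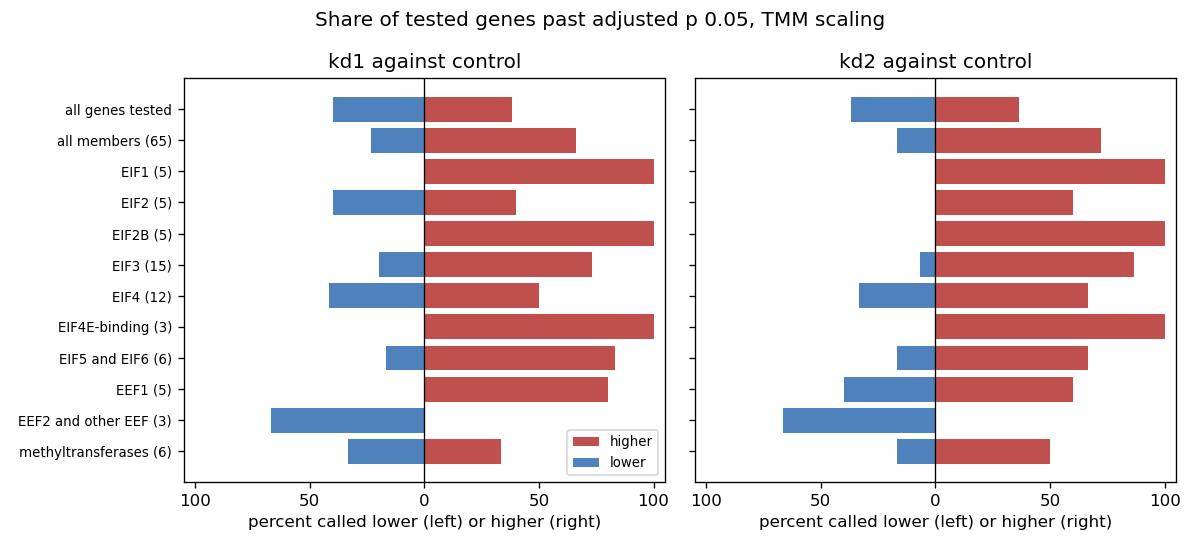
Percent of tested genes called higher (red, right) or lower (blue, left) at an adjusted p under 0.05 in kd1 and kd2 against control, for all genes, all 65 tested translation factors and each factor group (number tested in brackets), with TMM scaling. Bars of all genes are near equal on both sides, while those of the translation factors reach 66.2% and 72.3% on the right. With library totals the counts of translation factors called in kd1 become 31 higher and 22 lower (27.8% and 51% of all genes).

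Directly compared, kd2 exceeded kd1 in 29 of the 65 genes and was below it in 25, beside 68.8% of all genes called, 34.9% higher and 33.8% lower. The median was 0.02, as over all genes. With library totals 34 were higher and 19 lower, beside 42.8% and 27.3% of all genes. Of the 29 and 25 calls, 20 and 16 kept their direction under all 3 other scalings.

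Levels of paralogs, and of EIF1AX (eIF1A) and EIF1, which bind the small subunit together, can be compared within a library without library scaling factors, although trends with GC content and length remain in such ratios. Counts were divided by the length of the canonical transcript. EEF1A2 relative to EEF1A1 was 0.0454 and 0.0457 in control cells, 0.134 and 0.127 in kd1 and 0.0729 and 0.0702 in kd2. All knockdown libraries lay above both controls, by 1.52 on the log2 scale in kd1 and 0.65 in kd2, but by 0.39 and 0.57 in the fit with the GC and length correction. EIF4A2 relative to EIF4A1 was 23.3 in both control libraries, 232 and 349 in kd1 and 176 and 127 in kd2, a log2 rise of 3.14 over both knockdowns, or 2.85 with the pseudogenes' counts added. The low counts of EIF4A1 (52 to 519) and its shared exons make this ratio and its rise uncertain.

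EIF4EBP2 relative to EIF4EBP1 was 0.103 and 0.108 in control cells, 0.0763 and 0.0748 in kd1, and 0.169 and 0.215 in kd2. This ratio fell in kd1 (-0.48) and rose in kd2 (0.86), so over both knockdowns it was 0.19 higher, and it was 0.09 lower without the second kd2 library. With the GC and length correction EIF4EBP2 relative to EIF4EBP1 was higher in both, by 1.33 in kd1 and 1.29 in kd2, so its kd1 direction turned. EIF4G3 relative to EIF4G1 was 0.53 lower over both knockdowns on the log2 scale, EIF1AX relative to EIF1 0.87 lower, and EIF5A2 relative to EIF5A 0.10 higher. In kd1 alone, the correction moved EIF4G3 to EIF4G1 from -0.13 to 0.33, EIF1AX to EIF1 from -1.23 to -0.75 and EIF5A2 to EIF5A from 0.09 to 1.37. In an exact two-sided permutation test of 4 knockdown against 2 control libraries the smallest p-value possible is 0.133, so none of the 6 ratios could pass 0.05. That value was reached by 4 of them (adjusted p = 0.2), while EIF5A2 to EIF5A gave 0.267 and EIF4EBP2 to EIF4EBP1 gave 0.8.

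**Figure D4:**
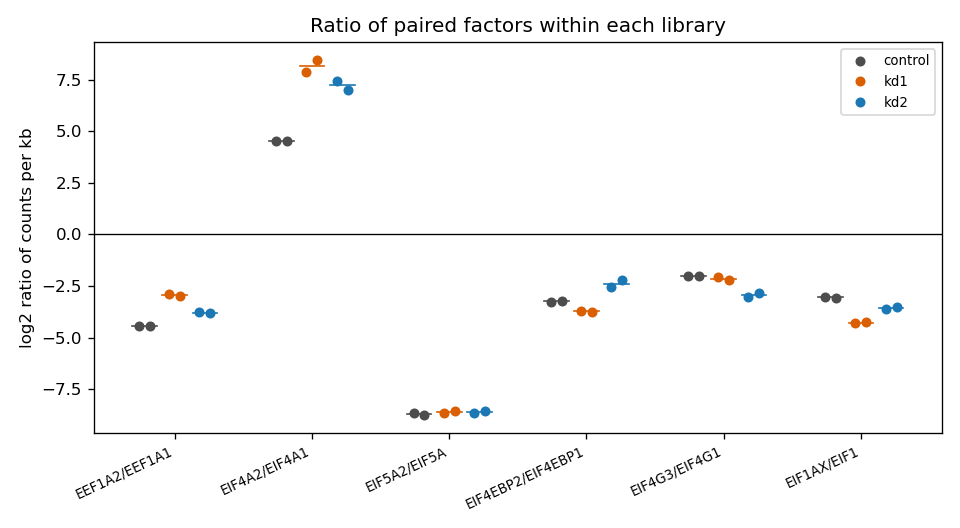
Log2 ratio of length-scaled counts (y axis) of 6 pairs of factors within each library, with control in grey, kd1 in orange and kd2 in blue and a line at each mean of 2 libraries. The 4 knockdown libraries lie above the controls for EEF1A2 to EEF1A1 and EIF4A2 to EIF4A1, and on opposite sides of them for EIF4EBP2 to EIF4EBP1, a pair that was higher in kd1 too with the GC and length correction. The ratio to EIF4A1 is uncertain, as that gene has few counts and shared exons.

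A list of 41 other genes that act on translation control gives the setting. In kd1, 22 were called higher (53.7%, beside 38.2% of all genes) and 13 lower (31.7%, beside 39.8%), but 14 higher and 23 lower with library totals (27.8% and 51% of all genes). Of the genes called in kd1, TSC2, PABPC4, ABCE1, ETF1, GSPT1 and BZW1 turned negative with those totals, and EIF2AK1, EIF2AK2, TSC1 and LARP1 turned positive and DOHH lower with the GC and length correction. In kd2, 25 were called higher (61%, beside 36.5%) and 8 lower (19.5%, beside 36.9%), where TSC1 and LARP1 turned positive with that correction. Among 6 kinases and phosphatase subunits acting on eIF2, EIF2AK4 (GCN2), which senses uncharged tRNA, changed by -1.39 ± 0.07 log2 units (adjusted p = 9.1e-11) in kd1 and -0.26 ± 0.06 log2 units (adjusted p = 0.002) in kd2. PPP1R15A (GADD34), which recruits the phosphatase that reverses eIF2 phosphorylation, rose by 1.56 ± 0.05 log2 units (adjusted p = 4.1e-12) in kd1 and 0.97 ± 0.05 log2 units (adjusted p = 8.0e-10) in kd2. The subgroups that follow are small and stand against the same shares of all genes. Of 8 genes of the mTORC1 axis, 3 were called higher and 4 lower in kd1 and 3 higher and 3 lower in kd2, with the exceptions just named. MTOR, the kinase that phosphorylates 4E-BPs, changed by -1.61 ± 0.07 log2 units (adjusted p = 6.2e-11) in kd1 and -0.84 ± 0.07 log2 units (adjusted p = 7.0e-08) in kd2, while RHEB, its activator, changed by 1.18 ± 0.05 log2 units (adjusted p = 5.8e-11) in kd1 and 0.98 ± 0.05 log2 units (adjusted p = 7.1e-10) in kd2. Of 8 recycling and termination genes, 6 were called higher and 0 lower in kd1, with ABCE1, ETF1 and GSPT1 below 0 with library totals, and 7 higher and 0 lower in kd2. HBS1L, a ribosome rescue factor, changed by 0.74 ± 0.05 log2 units (adjusted p = 6.4e-09) in kd1 and 1.44 ± 0.05 log2 units (adjusted p = 9.9e-12) in kd2. Of 8 genes that make hypusine or diphthamide, the modifications of eIF5A and eEF2, 6 were higher and 1 lower in kd1, where DOHH turned negative with the GC and length correction, and 6 higher and 0 lower in kd2. DPH3 changed by 1.29 ± 0.08 log2 units (adjusted p = 9.0e-10) in kd1 and 1.77 ± 0.08 log2 units (adjusted p = 4.9e-11) in kd2.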

How the data were processed

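The 6 RNA-seq libraries of 22Rv1 cells were grouped by their labels, with 2 libraries each of control, kd1 and kd2. Per the study's methods the authors used FastQC for read quality, AdapterRemoval for trimming, STAR for alignment to hg38 and SAMtools for sorting. The submitters' processing notes name FastQC 0.11.9, STAR 2.7.9a and HTSeq 0.13.5. The deposited values are raw whole-number counts for each gene symbol, left unnormalized by the authors. The annotation, use of strand and treatment of multi-mapped reads are not given in the sources used here, and neither is whether poly(A) RNA or rRNA-depleted RNA was used. Total counts of 26844128 to 38193748 per library set the precision of low values.

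Genes that passed filterByExpr (16510) entered edgeR 4.0.16 (R 4.3.3) with TMM scaling and the quasi-likelihood test in one fit of the 3 groups with 3 residual degrees of freedom. Benjamini-Hochberg adjustment ran over all tested genes with calls at an adjusted p under 0.05. Standard errors are log2 fold changes over the square root of F. Symbols were matched to GENCODE 44, 32852 by name and 248 by an older symbol, while 2222 did not match. GC content and length were known for 97.4% of tested genes. Alternatives were DESeq2 size factors, library totals, a GC and length correction (lowess span 0.3), the Wald test of DESeq2 1.42.0, the table without a filter or with a minimum of 10 counts per library, the replicate number as a block, a fit of only the groups compared, a 1.5-fold minimum and leaving out each library. The ratios under the GC and length correction, and the counts without genes of shared exons or near-identical copies, were alternatives chosen after the data were seen. Ratios within a library used exact permutation tests.

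Members, lists, comparisons and alternatives were chosen with earlier results of these data known. Genes named with values were 14 fixed factors, the largest rise and the largest fall of each factor group in the mean of both knockdowns, and every gene called in opposite directions, 31 in all. EIF1, EIF4B and other members named beyond that rule, and the genes of the partner list with values, were chosen after their values were seen. On simulated counts of 15994 genes, used to test the scripts, 97% of genes changed 2-fold and 83% of those changed 1.5-fold were recovered for kd1 against control, with 5.76% of calls false, and 97% and 82% for kd2 against control, with 3.24% false. In that simulation 100 genes were changed by each fold, as many up as down, alike in both knockdowns and only among genes above a set count. In the data 78% of all genes were called in kd1. Trends with GC content and a spread that differs between groups were not simulated, so these false shares cannot be carried over to the data. Figures were drawn with matplotlib 3.10.9.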

Additional observations from a re-analysis of the deposited data

Results flagged for a closer look

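The 2 knockdowns had effects of opposite sign against the same controls, with a difference between kd2 and kd1 that passed edgeR's quasi-likelihood test, in 11 genes. The share of all genes that meets this rule was not computed, and 68.8% of all genes were called between the knockdowns. Of the 11, 6 were called in opposite directions, which is 9.23% of the tested translation factors, beside 9.1% of all genes. EEF1A1, which carries tRNAs to the ribosome, was -0.44 log2 units in kd2 minus kd1, and EEF1AKMT1, a methyltransferase of eEF1A, was -1.77. EEF1AKNMT, another methyltransferase of eEF1A, was 1.03 and the initiation scaffold EIF4G1 0.97. The eIF3 subunit EIF3C was 1.80, with reads that may be divided with its copy EIF3CL, and EIF3A was 0.35, which turned to -0.07 with the GC and length correction. The kd1 effect of EEF1A1 was itself negative with library totals (-0.16), so with that scaling both of its effects were negative. In the other 5, at most 1 of the effects against control was called. Kd2 minus kd1 was -0.58 for EEF1D, which turned to 0.11 with the GC and length correction, -0.79 for the selenocysteine factor EEFSEC (-0.30 and no longer called with that correction), 0.68 for EEF2KMT, 0.28 for EIF2D and 1.56 for EIF3CL. With library totals and with the GC and length correction, both effects were negative for EEF1D (-0.26 and -0.68 in kd1), EEFSEC (-0.15 and -0.37 in kd1) and EIF2D (-0.14 and -0.06 in kd2). No group had the 4 samples that a test for outlying samples needs.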

How the results depend on the processing

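The total of called translation factors changed by at most 1.5 times under another scaling, filter or test, or with a library left out. With library totals the known TOP mRNAs called in kd1 went from 5 higher and 3 lower to 3 and 5, the partner genes from 22 and 13 to 14 and 23, and the partner genes between the knockdowns from 23 and 10 to 27 and 6. Shares of all genes with those totals were 27.8% higher and 51% lower in kd1 and 42.8% and 27.3% between the knockdowns. The calls of the 31 genes named by rule were unchanged in 62 of 62 cases with DESeq2 size factors, with the DESeq2 Wald test and with only the groups compared in the fit. Replicate numbers did not pair the libraries (correlations of deviations of 0.0062, -0.0264 and -0.044), and with the replicate block 58 translation factors were called in kd1, 58 in kd2 and 51 between the knockdowns, against 58, 58 and 54 without it.

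With a fold change of at least 1.5, 37 of the 65 translation factors were called in kd1 and in kd2, beside 59.7% and 51.1% of all genes. Of 41 partner genes 20 were called in kd1, and of 9 tested TOP mRNAs 4 in kd1 and 2 in kd2, all smaller shares than those of all genes. Between the knockdowns 23 translation factors, 15 partner genes and 2 TOP mRNAs were called, and the share of all genes at this fold was not computed. The median log2 fold change of the translation factors was 0.14 in kd1, 0.35 in kd2 and 0.20 between the knockdowns with library totals, where the median of all genes was -0.38, -0.20 and 0.21. It was 0.38, 0.44 and -0.056 with the GC and length correction, and 0.48 in kd2 with at least 10 counts in every library. With 1 library left out it was 0.47 to 0.52 in kd1, 0.51 to 0.55 in kd2 and -0.034 to 0.063 between the knockdowns. The log2 ratio of EIF4EBP2 to EIF4EBP1 was -0.091 to 0.42 in the same way.

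EEF1A1 turned to -0.16 in kd1 with library totals, and EEF1D to -0.26, or -0.68 with the GC and length correction. That correction gave -0.37 for EEF1AKMT4, 0.10 for EIF2S3 and 0.49 for EIF3A in kd1. EIF2S1, near 0 in kd1, was -0.34 with library totals, -0.034 with at least 10 counts and -0.047 to 0.069 with 1 library left out, and EEF2, near 0 in kd2, was -0.17 and called with library totals, as was EIF2S3 in kd2 at -0.23, and EEF2 was 0.0019 with the correction, 0.0023 with no filter and -0.040 to 0.035 with 1 library left out. Apart from the shift of the median with library totals, the cause was not tested. With 2 libraries a group and 3 residual degrees of freedom, genes of low counts such as EIF4E1B and EIF3CL have wide errors.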
